A study of Mus musculus with 12 samples.

Results

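Cytochrome P450 genes were followed in interscapular brown adipose tissue, the thermogenic fat of rodents, in 12 mice. Candidates were the protein-coding genes whose symbol starts with Cyp and a digit, without Cyp51, together with Por. Por encodes the reductase that serves those of these enzymes that lie in the endoplasmic reticulum. Of 100 such candidates among 54356 genes, 19 had a mean of 0.5 CPM or more (CPM, reads scaled to a common library size) in at least 1 of the 2 groups, namely 18 Cyp genes and Por. The genes were thus chosen by their mean CPM, and these levels are given as a description. All 12 animals were male wild type C57BL/6N mice, 20 weeks of age, and 6 were labelled ctrl and 6 cold. The protocol describes 24 h of single housing at 4 °C. That text is attached to both groups and is taken here to describe the cold animals. The colony was kept between 22 and 24 °C, and the sources used here do not say separately how ctrl mice spent the last day, so single housing and cold cannot be told apart. A sample size of 3 for cold stands in the series description against 6 in the labels, and the RNA protocol speaks of eWAT although the samples are labelled as interscapular brown fat. On both points the labels were taken as they stand.

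P450 enzymes are heme proteins of the endoplasmic reticulum and mitochondria that insert 1 atom of oxygen into fatty acids, eicosanoids, sterols, retinoids, steroids and foreign compounds. The microsomal enzymes receive their electrons from NADPH through the flavoprotein Por, with cytochrome b5 as a helper for some of them. Liver holds the largest amounts of most drug-metabolising members, while extrahepatic tissues express smaller sets that often act on lipids.

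Libraries were made from polyA RNA and held 15.98 to 31.4 M estimated reads. The brown adipocyte marker Ucp1 stood between 6549 and 11131 CPM in ctrl and between 9222 and 11265 CPM in cold. Of 10 skeletal muscle markers, none passed the test between the groups, but their summed level ran from 130 to 1705 CPM in ctrl and from 181 to 5395 CPM in cold. Ctrl 2 had the lowest library scaling factor (0.858) and cold 15 the highest (1.11), and results that rest on them are also given without them. Of 6 hepatocyte markers none reached the test, and their sum stayed between 0.546 and 1.83 CPM over the 12 libraries, with Fgb at 0 in all of them. Hepatocyte RNA was thus at or near 0 by these markers.

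Sequences are shown for the genes on which the results turn, with a different motif marked in each. The motifs were picked gene by gene, so the marks are not a comparison of promoters. Matches to other motifs are left unmarked, such as GCGTG, which Cyp2b10 and Cyp4v3 both hold before their starts. The printed stretches end where the RefSeq or the GENCODE gene begins, whichever comes first, and are written 5′ to 3′ on the gene's strand (RefSeq starts, GRCm38.p6). For Cyp2b10, at chr7:25897408-25897619 on the plus strand, capitals mark TTGCATAA at position -58 from the RefSeq start, a match to TTGCNNAA, the core bound by C/EBP factors. For Cyp4b1, at chr4:115647724-115647971 on the minus strand, they mark a TATAA box at -29. For Cyp4v3, at chr8:45333217-45333413 on the minus strand, they mark CACGTG, the E-box bound by clock and other helix-loop-helix factors, at -171.
Cyp2b10: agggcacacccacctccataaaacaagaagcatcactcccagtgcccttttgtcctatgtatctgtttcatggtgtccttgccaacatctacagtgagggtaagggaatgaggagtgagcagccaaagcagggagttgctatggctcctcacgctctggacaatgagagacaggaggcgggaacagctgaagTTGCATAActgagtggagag
Cyp4b1: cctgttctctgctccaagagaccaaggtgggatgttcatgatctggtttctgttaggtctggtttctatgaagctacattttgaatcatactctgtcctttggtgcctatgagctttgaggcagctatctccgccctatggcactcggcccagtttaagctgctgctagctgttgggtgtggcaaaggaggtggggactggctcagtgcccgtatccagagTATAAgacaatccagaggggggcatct
Cyp4v3: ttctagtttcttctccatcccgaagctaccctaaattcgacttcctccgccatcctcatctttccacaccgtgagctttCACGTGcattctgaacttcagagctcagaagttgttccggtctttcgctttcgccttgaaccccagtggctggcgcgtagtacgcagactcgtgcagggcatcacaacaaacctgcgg

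RefSeq promoter sequences were at hand for 15 of the 19 genes, but not for Cyp2u1, Cyp2d22, Cyp4f17 and Cyp39a1. The 250 bases before each start were searched on both strands, as were 32851 promoters in all. TTGCNNAA stood in 3 of the 15 (Cyp2b10, Cyp20a1 and Cyp2j9) and in 9.56% of all promoters. CACGTG stood in 2 (Cyp4v3 and Cyp2j6), against 6.02% of all. TATAA was found in 4 (Cyp4b1, Cyp2e1, Cyp1a1 and Cyp26b1), against 22.8%, and AGGTCA, the hexamer of nuclear receptors, in Cyp2f2, against 14.0%. GCGTG, the core recognised by the aryl hydrocarbon receptor, was present in 8, against 28.2%. TGACGTCA, the cyclic AMP response element, was in 0 of the 15 and in 1.55% of all promoters. These are matches of letters, and none of them was tested as a binding site.

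**Figure D1:**
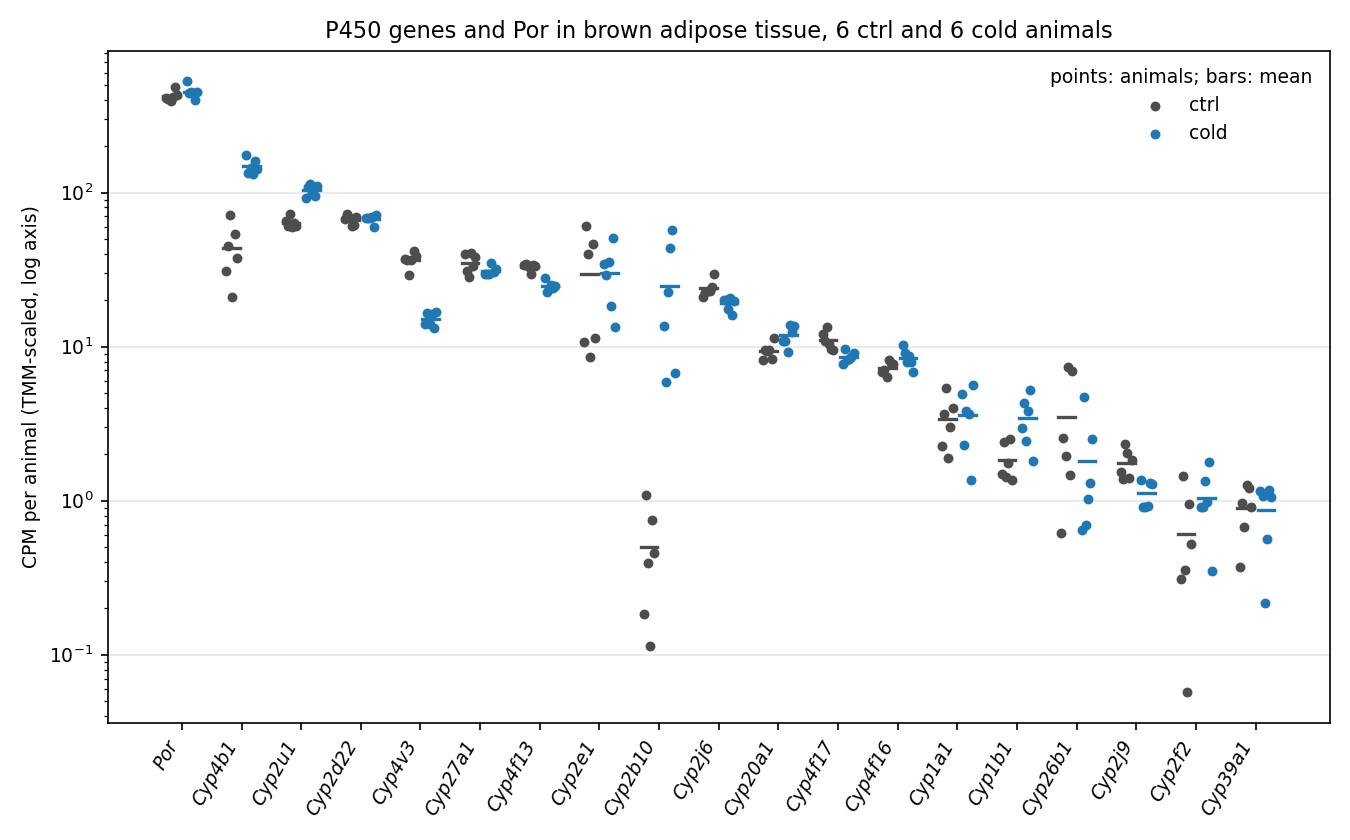
TMM-scaled CPM (log axis) of Por and the 18 Cyp genes in each animal, with ctrl in grey, cold in blue and bars at the group mean. Cyp2b10 lies between 0.114 and 1.09 CPM in ctrl and between 5.91 and 57.3 CPM in cold. Cyp4v3, Cyp4b1, Cyp2u1, Cyp4f13, Cyp2j6 and Cyp2j9 also separate without overlap.

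Por, the electron donor of the microsomal enzymes, had the highest level per transcript length of the 19 genes in both groups. In ctrl its lowest, median and highest levels were 392, 415 and 485 CPM, and in cold 397, 445 and 527 CPM. The groups overlapped, and the log2 fold change of cold over ctrl was 0.09 ± 0.08 (SE, n = 6 each; adjusted p = 0.437 in the quasi-likelihood test of edgeR, Benjamini-Hochberg over 13876 genes). Per kilobase of transcript, the scale on which genes can be compared with each other, Por stood at 180 ± 14.7 CPM per kb in ctrl (SD, n = 6). The next genes in ctrl were Cyp2d22 at 29.6 ± 2.97, Cyp4b1 at 25.1 ± 10.1, Cyp4f13 at 24.8 ± 1.68 and Cyp27a1 at 21.4 ± 2.58 CPM per kb, neighbours whose levels were within each other's spread. In cold, Cyp4b1 came directly after Por with 80.4 ± 8.31 CPM per kb, and the next pair, Cyp2d22 at 29.9 ± 2.93 and Cyp2u1 at 28.6 ± 2.73 CPM per kb, did not differ beyond their spread. Cyp2b10 reached 13.0 ± 11.0 CPM per kb in cold from 0.268 ± 0.193 in ctrl. Cyp1b1, Cyp26b1, Cyp2j9, Cyp2f2 and Cyp39a1 lay under 1 CPM per kb in the mean of both groups.

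Of the 18 genes past the level rule in both groups, Por included, 4 were higher and 5 lower in cold and 9 did not pass the test. Over all 13876 genes tested 31.6% were called, 16.2% higher and 15.4% lower, and the median log2 fold change was 0.02 for these 18 and -0.01 for all genes. The higher genes were Cyp4b1, Cyp2u1, Cyp1b1 and Cyp20a1, and the lower ones Cyp4v3, Cyp4f13, Cyp2j6, Cyp4f17 and Cyp2j9. Groups did not overlap for 6 of the 18, with cold above ctrl in 2 (8.94% of all genes) and below it in 4 (7.36% of all genes). Scaled by library totals instead of TMM factors, 2 of the 18 were lower instead of 5, and without ctrl 2 and cold 15 together 2 were higher instead of 4. Cyp2b10 passed the level rule through cold alone, with means of 0.496 CPM in ctrl and 26.2 CPM in cold before TMM scaling. The ctrl mean missed the rule narrowly, and a difference was built into the selection of this gene. Cyp2b10 is described by its values, without a test, and is in none of these counts.

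**Figure D2:**
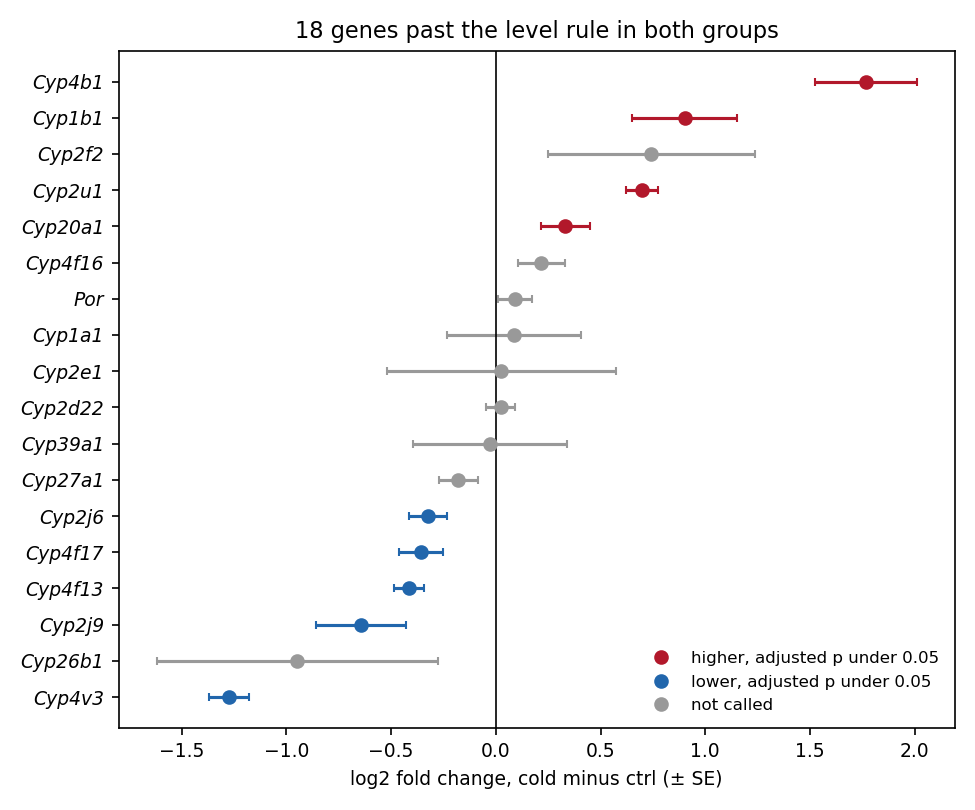
Log2 fold change of cold over ctrl with its SE for Por and the 17 Cyp genes past the level rule in both groups, coloured by edgeR call. Cyp4b1 lies at 1.77 and Cyp4v3 at -1.28, and 9 of the 18 points are grey, not called.

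Cyp2b10 belongs to the subfamily that phenobarbital induces in liver, where the nuclear receptor CAR (Nr1i3) controls it. The gene lies on chromosome 7 at 25897620 to 25926624 (GENCODE M21 bounds on GRCm38). In ctrl mice 2, 5, 6, 9, 10 and 14 it had 3, 27, 10, 2, 15 and 7 reads, or 0.185, 1.09, 0.396, 0.114, 0.754 and 0.457 CPM. In cold mice 4, 7, 11, 12, 15 and 16 it had 418, 111, 417, 845, 1310 and 115 reads, or 13.5, 5.91, 22.5, 43.6, 57.3 and 6.71 CPM. Every cold animal lay above every ctrl animal, and the lowest cold value was 5.41 times the highest ctrl value. The means were 0.50 ± 0.368 and 24.9 ± 21.1 CPM (SD, n = 6 each), a ratio of 49.9 that rests on 64 ctrl reads in all. Animals also differed within each group, by 9.69 times from lowest to highest in cold and by 9.57 times in ctrl. The fitted log2 fold change was 5.55, and it ran from 4.88 to 5.98 over 20 alternative settings. These fits use the levels that selected the gene, so they are a description and lend it no support.

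Skeletal muscle markers varied along with Cyp2b10 among the cold animals. On average over the 10 markers the log2 CPM was 8.56 in cold 15, which had the highest Cyp2b10, and 3.59 in cold 7, which had the lowest. Cold 4, 11, 12 and 16 lay between, at 5.25, 7.49, 6.38 and 5.48. Ctrl 10 had the highest marker mean in ctrl, 6.94, with 0.754 CPM of Cyp2b10, and cold 7 had 3.59 with 5.91 CPM. As descriptions, the fitted log2 fold change of Cyp2b10 was 4.88 with the marker mean as a covariate and 4.96 without ctrl 2 and cold 15. The part of skeletal muscle in the Cyp2b10 values was not tested. In whole tissue, fewer cells of a type and less RNA per cell cannot be told apart for this or any other gene.

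**Figure D3:**
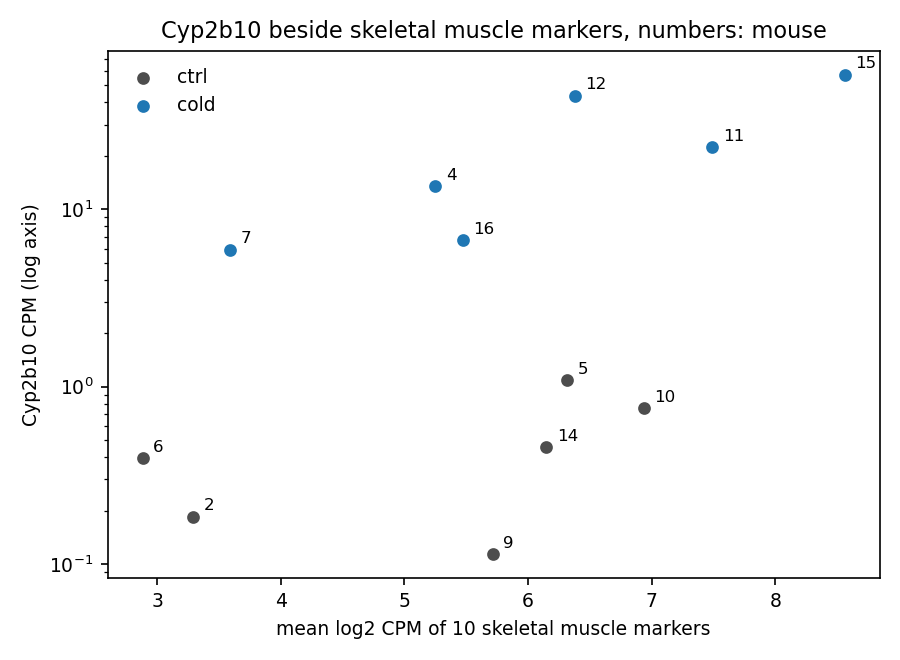
Cyp2b10 CPM (log axis) against the average log2 CPM over 10 markers of skeletal muscle, 1 point per mouse with its number. The 6 cold points lie above all 6 ctrl points, and cold 15 is highest on both axes.

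Cyp2b10 has 2 annotated coding transcripts whose coding parts differ by an internal exon, beside differing ends. Cyp2b10-201 has 10 exons, and its exon 9 is absent from Cyp2b10-202, which has 9. The exon spans chr7:25925373-25925399 on the plus strand (GRCm38) and is 27 nt long, a whole number of 9 codons, all coding, and is shown here in capitals throughout because it is the coding stretch that tells the transcripts apart.
exon of Cyp2b10-201: GACAAATTTTTGATCAAAAGTCTGTGG
Of the 3216 reads in cold, 3135 were assigned to Cyp2b10-202. Cyp2b10-201 received reads in cold 15 (5.14% of the gene's reads) and cold 16 (11.5%) and none in the other 4 cold animals. In ctrl the few reads of each animal were assigned wholly to 1 of the 2, so no share could be read there, and the gene was not tested for transcript usage. Of all 50-nt words in its transcripts 8.70% also occur in other genes, and 6.94% occur in Cyp2b13, which had 0 reads in either group.

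Among the fatty acid hydroxylases, Cyp4b1, an omega-hydroxylase that also activates some plant toxins, had the highest log2 fold change of the 18 tested genes. It lies on chromosome 4 at 115624725 to 115647723. The lowest, median and highest levels were 20.9, 41.5 and 71.6 CPM in ctrl and 132, 144 and 174 CPM in cold. No cold animal fell within the ctrl range, and the ctrl animals were the more scattered, with a coefficient of variation of 41.2% against 10.9% in cold. The means of 43.4 ± 17.9 and 148 ± 16.1 CPM (SD, n = 6 each) correspond to a log2 fold change of 1.77 ± 0.24 (SE; edgeR adjusted p = 1.76e-04). It was past the threshold in 20 of 20 alternative settings. Of its 50-nt words 8.26% recur in a pair of pseudogenes, which had 0 and 2.09 reads over all libraries. Its share of all reads of the 18 Cyp genes went from 11.4% (6.49% to 17.6% among animals) to 29.3% (26.3% to 33.8%).

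Cyp2u1, a hydroxylase of arachidonic and other long-chain fatty acids, lies on chromosome 3 at 131288441 to 131303227. It ran from 59.3 through a median of 61.9 to 72.5 CPM in ctrl and from 92.4 through 104 to 113 CPM in cold, without overlap. The rise from 63.6 ± 4.85 to 103 ± 8.61 CPM (SD, n = 6 each) gave a log2 fold change of 0.70 ± 0.07 (SE; edgeR adjusted p = 3.62e-06), and the gene passed in 20 of 20 alternatives. Animals within a group were close to each other for this gene, unlike for Cyp2b10. Of the words of Cyp2u1 2.6% also occur in other genes. Slc3a2 holds 0.649% and had 6873 reads in ctrl and 17434 in cold, a difference in the same direction. Kdelc2, which also shares words, had 623 and 557 reads. The part of shared reads in the Cyp2u1 values was not tested.

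Cyp4v3, the mouse counterpart of the human fatty acid hydroxylase altered in Bietti crystalline dystrophy, moved the other way. It is on chromosome 8 at 45304944 to 45333216. Ctrl animals had a lowest, median and highest level of 29.1, 36.9 and 42.03 CPM, and cold animals of 13.2, 15.2 and 16.9 CPM. The groups stood well apart, with means of 36.7 ± 4.25 and 15.2 ± 1.55 CPM (SD, n = 6 each). The log2 fold change was -1.28 ± 0.09 (SE; edgeR adjusted p = 8.38e-08), past the threshold in 20 of 20 alternatives. The words it shares with another gene, 7.02%, are all in Gm45753, which had 2.18 reads in ctrl and 1.02 in cold.

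Enzymes of the Cyp4f subfamily hydroxylate leukotrienes and fatty acids, and Cyp4f13, Cyp4f16 and Cyp4f17 lie together on chromosome 17. Cyp4f13 fell from 32.8 ± 1.65 to 24.6 ± 1.86 CPM (SD, n = 6 each), which is -0.42 ± 0.07 on the log2 scale (SE; edgeR adjusted p = 3.26e-04). Its levels ran from 29.6 to 34.1 CPM in ctrl (median 33.4) and from 22.5 to 27.9 CPM in cold (median 24.2), without overlap. Cyp4f17 fell from a range of 9.47 to 13.4 CPM to one of 7.77 to 9.70 CPM, with 5 of 6 cold animals under the lowest ctrl animal (log2 fold change -0.36 ± 0.11; edgeR adjusted p = 0.0162). Its neighbour Cyp4f16 did not pass, with 7.31 ± 0.689 CPM in ctrl and 8.48 ± 1.19 CPM in cold (0.22 ± 0.11; edgeR adjusted p = 0.162). Of the 50-nt words of Cyp4f16 17.4% occur in other genes, most of them in Cyp4f37, which had 1 read in ctrl and 7 in cold. Summed over 9 Cyp4f genes, a total that does not depend on how shared reads were divided, the subfamily went from 51.7 ± 1.85 to 42.3 ± 2.50 CPM (-0.29 ± 0.06; edgeR adjusted p = 0.00212). In that table of sums 31.5% of 13874 rows were called.

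Cyp2j6 and Cyp2j9, of the Cyp2j subfamily, were both lower in cold. Cyp2j6 had a lowest, median and highest level of 21.02, 22.98 and 29.6 CPM in ctrl and of 16.1, 19.9 and 20.7 CPM in cold, without overlap (log2 fold change -0.32 ± 0.09; edgeR adjusted p = 0.0131). With library totals as the scaling its adjusted p was 0.0805 (edgeR), and that of Cyp4f17 was 0.0799. Cyp2j9 had few reads, between 1.37 and 2.34 CPM in ctrl and between 0.905 and 1.36 CPM in cold, which just missed touching (-0.64 ± 0.21; edgeR adjusted p = 0.0292). This call was lost in 8 of 19 alternatives, among them leaving out ctrl 6, ctrl 9, cold 7, cold 11 or cold 12 (edgeR adjusted p = 0.0792, 0.0627, 0.0671, 0.0607 and 0.0656). The sum of 8 Cyp2j genes fell from 25.7 ± 3.03 to 20.2 ± 1.76 CPM (-0.34 ± 0.09; edgeR adjusted p = 0.00685).

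Some stromal and mural cell markers were also lower in cold. Of 6 stromal and preadipocyte markers 3 fell and none rose, beside 15.4% lower and 16.2% higher among all genes tested. Their sum ran from 210 to 367 CPM in ctrl and from 167 to 256 CPM in cold. Of 5 mural and smooth muscle markers 2 fell, with sums of 439 to 544 and 326 to 408 CPM. Their part in the lower P450 genes was not tested. Brown adipocyte markers were split, with 2 of 7 higher and 1 lower, and so were endothelial ones, with 2 of 6 higher and 1 lower. These counts rest on few markers per cell type and were not tested against the shares over all genes.

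Enzymes known for foreign compounds and their receptor-driven induction gave mixed values. Cyp1b1, a target of the aryl hydrocarbon receptor that acts on estrogens and polycyclic hydrocarbons, ran from 1.37 through a median of 1.62 to 2.51 CPM in ctrl and from 1.81 through 3.396 to 5.20 CPM in cold. It rose by 0.90 ± 0.25 on the log2 scale (SE, n = 6 each; edgeR adjusted p = 0.0113), with 4 of 6 cold animals above the highest ctrl animal. Without ctrl 2 and cold 15 the change was 0.69 with an adjusted p of 0.0657 (edgeR). Cyp1a1, the best known target of the same receptor, stood at 3.37 ± 1.28 and 3.61 ± 1.58 CPM (SD, n = 6 each) and did not pass (0.09 ± 0.32; edgeR adjusted p = 0.866). Cyp2d22, of the subfamily that handles many basic drugs, did not pass either, at 66.6 ± 4.49 and 67.7 ± 3.92 CPM (0.02 ± 0.07; edgeR adjusted p = 0.834). Cyp2f2, known for naphthalene activation in lung, had 0.609 ± 0.511 and 1.05 ± 0.485 CPM (0.74 ± 0.49; edgeR adjusted p = 0.282).

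Cyp2e1, which oxidises ethanol, acetone and other small molecules, differed widely between animals of the same group. In ctrl mice 2, 5, 6, 9, 10 and 14 it stood at 10.7, 60.5, 39.6, 8.55, 46.5 and 11.4 CPM, 3 high and 3 low values with nothing between 11.4 and 39.6. Cold mice 4, 7, 11, 12, 15 and 16 had 34.3, 29.1, 35.4, 18.4, 50.7 and 13.5 CPM. The group means were alike at 29.6 ± 22.3 and 30.2 ± 13.3 CPM (SD, n = 6 each), but the log2 fold change of 0.03 ± 0.55 (SE; edgeR adjusted p = 0.979) leaves room for a sizeable difference in either direction. Over 20 alternatives it ran from -0.35 to 0.37. Of the words of Cyp2e1 3.9% also occur in other genes. Fcho2 holds 3.46% and had 3192 reads in ctrl and 2882 in cold, and the part of shared reads was not tested.

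Members that act on sterols and retinoids did not pass the test. Cyp27a1, the mitochondrial sterol hydroxylase that begins the acidic pathway of bile acid synthesis, went from 35.1 ± 4.99 to 31.0 ± 2.14 CPM (SD, n = 6 each; log2 fold change -0.18 ± 0.09, edgeR adjusted p = 0.162). Cyp39a1, an oxysterol hydroxylase, was near the detection rule at 0.898 ± 0.334 and 0.874 ± 0.393 CPM (-0.03 ± 0.37; edgeR adjusted p = 0.965). Cyp26b1, which degrades retinoic acid, ranged from 0.616 to 7.36 CPM in ctrl and from 0.646 to 4.69 CPM in cold, with ctrl 9 and ctrl 14 highest (-0.95 ± 0.67; edgeR adjusted p = 0.324). Cyp20a1, an orphan enzyme without an agreed substrate, rose from 9.38 ± 1.16 to 11.8 ± 1.81 CPM (0.33 ± 0.12; edgeR adjusted p = 0.0389). Its groups overlapped, with 3 of 6 cold animals above the highest ctrl one, and the call was lost in 11 of 20 alternatives. Among these were leaving out ctrl 2, 5, 6, 9 or 10 (edgeR adjusted p = 0.0848, 0.0610, 0.0589, 0.0589 and 0.0854) or cold 12, 15 or 16 (0.0951, 0.0711 and 0.0921). Of the words of Cyp20a1 4.64% also occur in other genes, with 2.84% in Fry. Reads in ctrl and cold were 6043 and 5632 for Fry, 8082 and 8809 for Ube2d2a and 1835 and 1755 for Zc3hav1. The part of shared reads in the Cyp20a1 values was not tested.

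Summed over the 18 Cyp genes, Cyp2b10 included, the level was 372 ± 35.8 CPM in ctrl and 505 ± 25.8 CPM in cold (SD, n = 6 each), without a test because the rule used these levels. The composition differed along with the sum. These are shares of reads, which also depend on transcript length. In ctrl the leading ones were Cyp2d22 with 18.02%, Cyp2u1 with 17.2% and Cyp4b1 with 11.4%. In cold they were Cyp4b1 with 29.3%, Cyp2u1 with 20.5% and Cyp2d22 with 13.5%. Cyp4v3 went from 9.97% to 3.02% and Cyp2b10 from 0.129% to 4.81%.

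**Figure D4:**
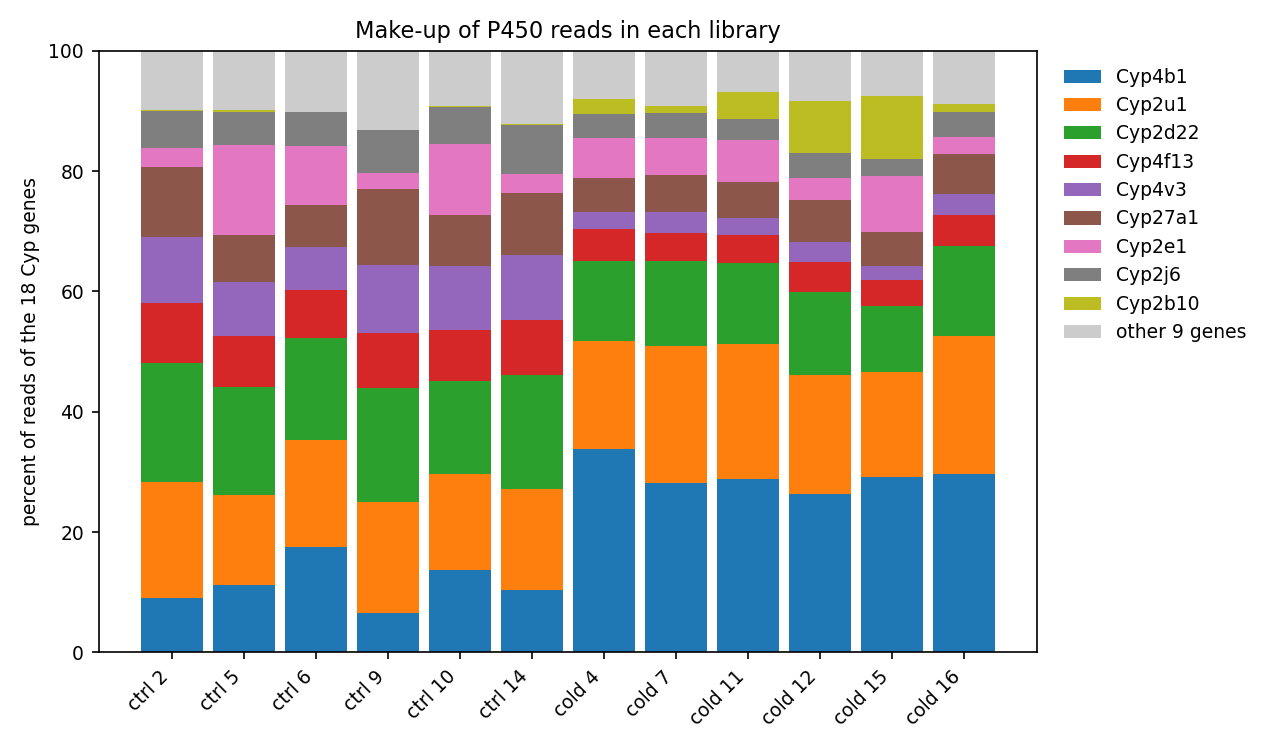
Percent of the reads of the 18 Cyp genes held by each gene, 1 bar per mouse. The Cyp4b1 segment is between 6.49% and 17.6% in the 6 ctrl bars and between 26.3% and 33.8% in the 6 cold bars, and the Cyp2b10 segment is visible in cold, at 10.4% in cold 15.

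Transcript usage was not part of the rule that chose the genes. Of 7233 genes tested with edgeR's diffSpliceDGE gene test 1.22% were called. Of the 19 P450 genes 9 had enough transcripts to test, and Por (adjusted p = 0.0425) and Cyp4b1 (adjusted p = 0.0363) passed. Cyp4b1-201, the full-length coding transcript, held 90.9 ± 1.88% of the gene's reads in ctrl and 96.9 ± 0.613% in cold (SD, n = 6 each), with no overlap between 88.6% to 93.9% and 96.1% to 97.8%. The retained-intron transcript Cyp4b1-203 went from 2.85 ± 0.910% to 0.694 ± 0.327%, and Cyp4b1-202, annotated for nonsense-mediated decay, from 4.35 ± 1.65% to 1.23 ± 0.386%. Reads of Cyp4b1-201 numbered 4959 in ctrl and 18670 in cold, whereas Cyp4b1-202 had 249 and 252 and Cyp4b1-203 had 152 and 122. No single Cyp4b1 transcript passed an adjusted test of its own. Both gene calls were fragile: Cyp4b1 passed in 3 of 15 alternatives (adjusted p from 0.00574 to 1.00) and Por in 4 of 16 (0.0165 to 0.540), and with the Simes test neither passed. Neither passed when ctrl 2, 5, 10 or 14 or cold 4, 7, 12 or 16 was left out, and 1 of the 2 passed without cold 11 or cold 15. In Por, the main coding transcript Por-201 held 95.0 ± 0.515% and 96.5 ± 0.715% of reads.

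**Figure D5:**
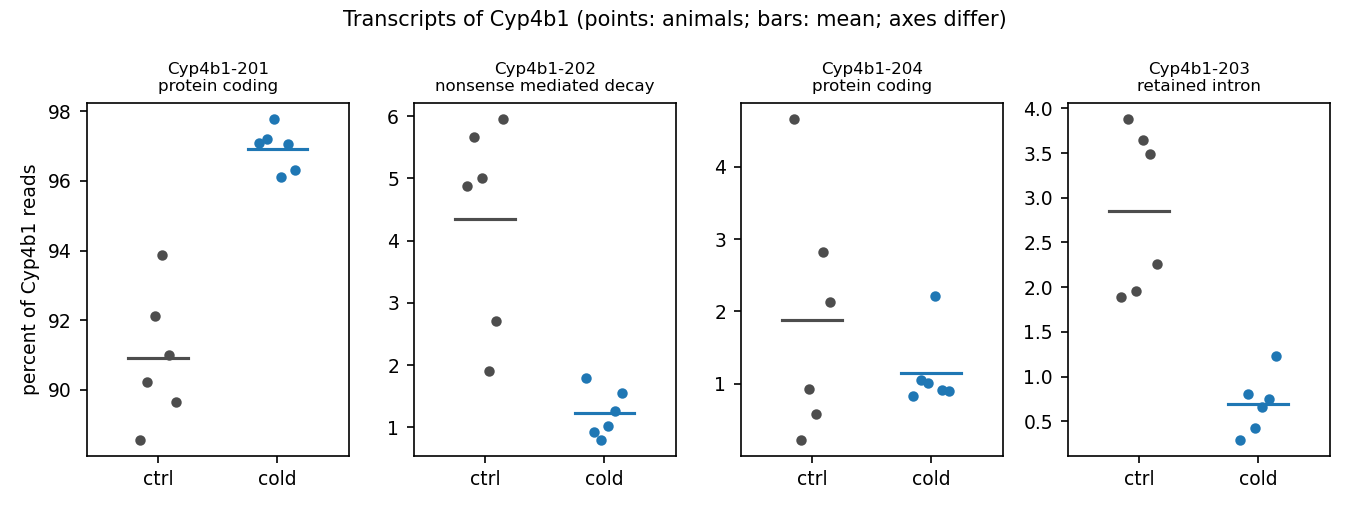
Percent of Cyp4b1 reads assigned to each of its 4 transcripts, 1 point per animal with bars at the group mean (the vertical axes differ between panels and do not start at 0). Cyp4b1-201 is at 88.6% to 93.9% in ctrl and 96.1% to 97.8% in cold.

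Cyp2d22 had an unusual make-up in both groups. Transcripts annotated as retained introns held 52.3% of its pooled reads in ctrl and 44.7% in cold, and usage did not pass (edgeR adjusted p = 0.854). Its coding transcript Cyp2d22-201 held 47.95 ± 4.62% and 54.0 ± 5.54% of reads (SD, n = 6 each). For Cyp4f13 retained introns held 27.1% and 28.8%.

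The 81 candidates under the level rule include 45 with no reads in any of the 12 libraries. Subfamilies known for drug metabolism in liver were among them. All 4 Cyp2a genes and 14 of 15 Cyp2c genes had no reads, as had 7 of 9 Cyp3a genes, with 7 Cyp3a reads in all. A count of 0 over the 247 M reads of all libraries allows up to 0.0121 CPM (3 counts, for counting error only). Of 8 Cyp4a genes, hydroxylases that PPAR-alpha controls in liver, none passed the rule, and their sum stood at 0.389 ± 0.291 and 0.672 ± 0.236 CPM (SD, n = 6 each; edgeR adjusted p = 0.196). The genes just inside the rule were Cyp2f2 (0.604 CPM in ctrl and 1.09 in cold before TMM scaling) and Cyp39a1 (0.887 and 0.902). Just outside lay Cyp4f18 (0.393 and 0.441), Cyp2s1 (0.441 and 0.220), Cyp4a10 (0.220 and 0.400), Cyp46a1 (0.367 and 0.236) and Cyp2r1 (0.304 and 0.189).

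Among P450 enzymes outside the rule, Ptgis, prostacyclin synthase, averaged 1.80 ± 0.562 CPM in ctrl and 0.419 ± 0.221 CPM in cold (SD, n = 6 each). Its ranges of 1.17 to 2.68 and 0.175 to 0.808 CPM did not overlap. Since the cold mean lies under 0.5 CPM and ctrl carried the gene through the count filter, it is described without a p. Tbxas1, thromboxane synthase, stood at 0.997 ± 0.387 and 0.798 ± 0.325 CPM (edgeR adjusted p = 0.488). Cyp51, which demethylates lanosterol in cholesterol synthesis, stood at 34.9 ± 5.35 and 39.4 ± 6.35 CPM (edgeR adjusted p = 0.292).

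The other genes of these pathways are given by list, to be read against the 31.6% of all genes that were called. Of 12 redox and membrane partners tested, 2 were higher, 3 lower and 7 not called, with a median log2 fold change of 0.06. Hmox2, the constitutive heme oxygenase that also draws electrons from Por, rose from 56.8 ± 4.19 to 117 ± 18.2 CPM (1.04 ± 0.09; edgeR adjusted p = 6.45e-07). Genes of the cytochrome b5 system were split. Cyb5r3, its main reductase, went from 138 ± 12.2 to 83.0 ± 11.2 CPM (-0.74 ± 0.09; edgeR adjusted p = 2.07e-05). Cyb5a, microsomal cytochrome b5, went from 87.2 ± 5.02 to 60.2 ± 10.0 CPM (-0.53 ± 0.09; edgeR adjusted p = 3.87e-04). Cyb5r1, another member of the reductase family, rose from 31.3 ± 3.19 to 41.2 ± 5.50 CPM without overlap (0.40 ± 0.10; edgeR adjusted p = 0.00454), a gene outside the naming rule and named with its values known. Cyb5b, the outer mitochondrial form, stood at 341 ± 32.1 and 370 ± 50.0 CPM (edgeR adjusted p = 0.380).

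Of 19 receptors and factors that control P450 genes, 3 were higher and 5 lower, with a median of -0.09. Hlf and Tef, clock-linked activators of detoxification genes in liver, had lower levels, 41.1 against 66.9 CPM and 176 against 222 CPM (-0.70 and -0.33 on the log2 scale; edgeR adjusted p = 2.32e-05 and 0.00190). Rarg, a retinoic acid receptor, fell from 26.8 to 19.3 CPM (-0.48; edgeR adjusted p = 8.94e-04). The other lower genes were Dbp and Arnt. Dbp fell from 147 to 78.8 CPM, with overlap (-0.89; edgeR adjusted p = 0.00236). Arnt stood at 46.7 and 39.4 CPM (-0.25; edgeR adjusted p = 0.0499), and its call was lost with RLE factors (0.0508) and with library totals (0.321). The higher genes were Rarb, another retinoic acid receptor (10.9 to 15.3 CPM, 0.48; edgeR adjusted p = 0.00305), Nfil3, a repressor linked to the clock (10.7 to 16.7 CPM, 0.64; edgeR adjusted p = 0.00390), and Rara. Rara, the remaining retinoic acid receptor, stood at 9.83 and 12.4 CPM (0.34; edgeR adjusted p = 0.0219), and its call was lost without ctrl 9 (0.0504), without cold 7 (0.0510) and without both ctrl 2 and cold 15 (0.0693). Ahr, the aryl hydrocarbon receptor, stood at 11.9 and 9.14 CPM and did not pass (-0.38; edgeR adjusted p = 0.0752), but passed without ctrl 9 (0.0370). The receptors CAR and PXR were hardly detected. Nr1i3, the liver regulator of Cyp2b10, averaged 0.272 CPM in ctrl and 0.147 CPM in cold, and Nr1i2 (PXR) 0 and 0.0177 CPM, and neither reached the test. Dbp, Arnt, Rarb, Nfil3, Rara, Ahr, Nr1i3 and Nr1i2 fall outside the naming rule and were named with their values known.

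Around the eicosanoid P450s, 2 of 12 tested enzymes were higher and 3 lower, with a median of -0.09. Ptgds, which makes prostaglandin D, rose from 8.05 ± 1.72 to 33.4 ± 4.90 CPM (2.06 ± 0.14; edgeR adjusted p = 3.08e-08). Ephx2, the soluble epoxide hydrolase that opens fatty acid epoxides, rose from 349 ± 89.0 to 521 ± 32.5 CPM (0.58 ± 0.14; edgeR adjusted p = 0.00406), with overlap. The microsomal hydrolase Ephx1 fell from 26.3 to 19.2 CPM (-0.46; edgeR adjusted p = 3.54e-04) and Ltc4s, leukotriene C synthase, from 13.0 to 7.33 CPM (-0.82; edgeR adjusted p = 0.00120).

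In the retinoid list 2 of 8 were higher and 1 lower, with a median of -0.15. Dhrs9, a retinol dehydrogenase, rose from 21.8 ± 5.19 to 72.4 ± 11.6 CPM (1.72 ± 0.15; edgeR adjusted p = 1.15e-06), and Dhrs3, a retinaldehyde reductase, from 69.8 to 85.4 CPM (0.29; edgeR adjusted p = 0.00471). Rbp4, the plasma retinol carrier, fell from 76.3 to 38.7 CPM (-0.98; edgeR adjusted p = 1.33e-04). In the oxysterol and bile acid list 3 of 5 were higher and 1 lower, with a median of 0.35. Scp2, a sterol carrier and peroxisomal thiolase, rose from 674 to 1112 CPM and Amacr, a racemase of bile acid intermediates, from 36.2 to 54.1 CPM (0.72 and 0.58; edgeR adjusted p = 1.06e-05 and 7.61e-05). Hsd3b7, which follows the sterol hydroxylases in bile acid synthesis, fell from 56.6 to 43.02 CPM (-0.40; edgeR adjusted p = 0.00532).

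Steroid enzymes gave 2 of 10 higher and 3 lower, with a median of -0.14. Hsd11b1, which regenerates active glucocorticoid, fell from 79.0 ± 9.30 to 36.9 ± 6.33 CPM without overlap (-1.10 ± 0.11; edgeR adjusted p = 1.84e-06), and Hsd17b10, a mitochondrial dehydrogenase, from 86.0 to 59.0 CPM (-0.54; edgeR adjusted p = 0.00436). Hsd17b7, a ketoreductase of cholesterol synthesis, and Hsd17b12, a reductase of fatty acid elongation, rose by 1.15 and 0.33 (edgeR adjusted p = 9.53e-06 and 0.00644). Of 15 conjugating and other drug-metabolising enzymes, 1 was higher and 5 lower, with a median of -0.25. The carboxylesterase Ces1f fell from 31.8 ± 5.44 to 10.3 ± 0.836 CPM (-1.62 ± 0.11; edgeR adjusted p = 3.08e-08) and the aldehyde oxidase Aox1 from 58.9 to 35.7 CPM (-0.72; edgeR adjusted p = 2.24e-06). The 1 higher gene, Sult4a1, a sulfotransferase-like protein, averaged 0.0293 CPM in ctrl and 1.99 CPM in cold. Its level met the count filter through cold alone, so a difference was built into its being tested, and it is described without a p. The counts and the median of this list still include Sult4a1, so its 1 higher call lends no support. Ces1d, a triglyceride-hydrolysing carboxylesterase, stood at 868 and 732 CPM (edgeR adjusted p = 0.118), and it passed without ctrl 9 (-0.33; edgeR adjusted p = 0.0182).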

How the data were processed

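Brown fat RNA from 12 mice was made into strand-specific libraries and sequenced with paired reads of 50 nt, per the labels' protocols. Salmon, cutadapt, bcl2fastq and GRCm38 are named without versions in the submitters' processing notes. The annotation release behind them was not given in the sources. The deposited files hold estimated counts per transcript, not normalized, for 140658 transcripts. Of these, 140137 were tied to genes in GENCODE M21, an annotation of GRCm38, and the other 521 held 0.0866% to 0.152% of reads.

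Counts were summed per gene, rounded, filtered with filterByExpr at a minimum count of 10 and given TMM factors. The two-sided robust quasi-likelihood test of edgeR was adjusted by Benjamini-Hochberg over 13876 genes, with calls under 0.05. CPM per kb divides each transcript's reads by its annotated length. Transcript shares are shares of a gene's estimated counts. Each animal has its own mouse number, so the p-values measure the spread between animals.

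The members and lists were chosen with earlier results of these data known. Named genes were the members, Ptgis, Tbxas1, Cyp51 and, from each list, up to 3 called genes of smallest p and the one of highest mean CPM. Alternatives were RLE factors, library totals, DESeq2, limma-voom, other filters, a skeletal muscle covariate, ctrl 2 and cold 15 left out together, each animal left out in turn and, for usage, Simes and limma's diffSplice. Only the gene-level edgeR test was tried on simulated data, and the transcript usage test was not. Tools were R 4.3.3, edgeR 4.0.16, limma 3.58.1, DESeq2 1.42.0, Python 3.11.15, matplotlib 3.10.9, pandas 2.3.3, SciPy 1.17.1 and NumPy 2.4.6.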

Additional observations from a re-analysis of the deposited data

Results flagged for a closer look

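Among 38 groups of 6 values (19 genes in ctrl and in cold), 2 held an animal set apart from the others by Dixon's criterion, which chance does in about 1 in 20 groups. Cyp2d22 stood at 60.2 CPM in cold 15 and between 68.1 and 71.7 CPM in the other cold animals. Cyp4f13 stood at 29.6 CPM in ctrl 9 and between 32.8 and 34.1 CPM in the other ctrl animals.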

How the results depend on the processing

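Cyp4b1, Cyp2u1, Cyp4v3 and Cyp4f13 were past the threshold in 20 of 20 alternatives, Cyp2j6 in 19 of 20, Cyp4f17 in 18 of 20, Cyp1b1 in 18 of 19, Cyp2j9 in 11 of 19 and Cyp20a1 in 9 of 20. Of 355 alternative values for the 18 members tested, 23 lost the call, 0 gained one and 0 reversed a called direction. Scaling by library totals lowered the count of lower members from 5 to 2 and of all lower genes from 2134 to 1409, and it moved the median of all genes from -0.01 to 0.08. Without ctrl 2 and cold 15 together, 2 members instead of 4 were higher. Subfamily sums that were higher, with Cyp2b left out, numbered 2 instead of 4, beside 31.5% of all rows of that table called. Those 4 (Cyp1b, Cyp20a, Cyp2u and Cyp4b) hold 1 gene each, so they repeat calls of members. With ctrl 2 and cold 15 left out usage called 53 genes instead of 88. With Simes it called 14, with limma's diffSplice 196 and with a minimum count of 50 it called 164. The members called for usage, 2 in the main test, were 0, 0, 1 and 0 in these alternatives.

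Leaving out 1 animal at a time, the members higher numbered 3 to 4 and lower 4 to 5. Over all genes, 2023 to 2605 were higher and 1836 to 2481 lower. Of the subfamilies, with Cyp2b left out, 3 to 4 were higher and 3 to 3 lower. The genes called for usage numbered 62 to 210 and the members called for usage 0 to 2. The level rule kept 19 genes each time. No paired analysis was possible because the mouse numbers differ between the groups. The highest count for usage, 210, came without cold 4. Genes under 1 CPM rest on few reads, which limits what could be called for them.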
